A study of Nothobranchius furzeri with 228 samples.

Results

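Fish FC85 to FC116 were the 32 killifish with the highest animal numbers in a longitudinal series, and each was sampled at 20 weeks and at 10 weeks of age. They were taken by animal number, as 64 of the 228 libraries and 32 of the 114 fish. This range of numbers was picked as the one with the longest lives by age at death in the labels, so its ages at death are a description, and no expression value entered the choice. All fish were males of Nothobranchius furzeri, the turquoise killifish, a short-lived annual fish, of the wild-derived strain MZM-0410, kept under normal ageing conditions. A piece of fin was clipped at both ages, its RNA was sequenced, and the age at death of the fish was recorded. The groups compared were the second clips of these 32 fish at 20 weeks and the first clips of the same 32 fish at 10 weeks. Each fish served as its own reference, but the fin sampled at 20 weeks belonged to a fish that had already been clipped, so age, order of clip and date of sampling cannot be told apart. Fish FC85 to FC116 died at a median age of 409 days (range 151 to 521 days, 31 fish with a known age), against 217 days in fish FC51 to FC84 (143 to 392 days, n = 34) and 311 days in fish FC1 to FC50 (145 to 405 days, n = 48 fish).

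The fin is made of an epidermis of several cell layers over bony rays, with fibroblasts, blood vessels, nerves and pigment cells inside the rays, and it regrows after a cut. Its cells carry a circadian clock, a loop in which the CLOCK and ARNTL proteins switch on the PER, CRY and NR1D genes, whose products then repress that loop, so that the mRNA of its members cycles over the day. Protein supply in the same cells depends on ribosomes assembled in the nucleolus, and protein removal on the proteasome, a barrel of proteolytic subunits capped by a regulatory particle.

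Each library held 1.59e+07 to 2.98e+07 gene counts at 20 weeks and 1.78e+07 to 3.27e+07 at 10 weeks. Levels are given as CPM, counts rescaled to the same total in every library after TMM, a factor that evens out differences in composition between libraries. A keratin gene, KRT76 (Nfu_g_1_001437, named krt5 in fish), which encodes an intermediate filament protein of epithelia, took 87918, 133756 and 176030.0 CPM at 20 weeks and 100419, 146904 and 200613 CPM at 10 weeks (lowest, median and highest of 32 libraries), with overlap between the ages and no call (log2 change -0.076 ± 0.058, adjusted p = 0.239), and it is a marker of the epidermis that the label fin implies. Of 9 fish, FC95 to FC98 and FC100 to FC104, neither sample had the other sample of the fish as its best match among the 32 fish. This was found by correlating deviations from the mean of each age over the 300 genes that correlated best between the ages in fish FC1 to FC84, and in the other 23 fish the paired samples matched each other best, with a median r of 0.887. In the 9 fish the r between the samples of a fish was -0.343 to 0.364, whereas each sample best matched a sample of another of the same 9 fish, at an r of 0.763 to 0.932, and FC95 with FC103, FC96 with FC104 and FC97 with FC101 matched each other in both directions. Whether labels were exchanged among these fish was not tested. The labels were kept, so every count over 32 fish takes them as given, and the number of genes called is also given without these 9 fish.

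Libraries also stood apart in runs of animal numbers, although the labels name no batch. At 20 weeks the libraries of fish FC93 to FC108 lay above those of the other 16 fish without overlap at 211 of 17038 genes (1.24%), and at 0 genes below them, while the same split of the fish gave 0 such genes at 10 weeks. At 10 weeks the libraries of fish FC105 to FC116 did not overlap those of fish FC85 to FC104 at 1653 genes (9.70%), of which 1213 were higher (7.12%) and 440 lower (2.58%), and at 20 weeks this split gave 0 genes. Results that differed between these runs, which were defined after the data had been seen, are also given within them. Within fish FC105 to FC116, 32.3% of genes were called higher and 33.4% lower at 20 weeks; within fish FC85 to FC104 these shares were 33.1% and 30.6%, and within fish FC93 to FC108 29.8% and 30.6%. Counts of list members within a run are to be read against them.

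In the paired test, 12357 of 17038 genes passed an adjusted p of 0.05 (72.5%), with 6435 higher (37.8%) and 5922 lower (34.8%) at 20 weeks. This was edgeR's quasi-likelihood test with the fish as block, so that each fish was compared with itself, and p-values were adjusted by the Benjamini-Hochberg method over all genes tested; every adjusted p below comes from it unless another test is named. Changes were mostly small. A change beyond 1 on the log2 scale was called for 841 genes (4.94%), 304 of them higher (1.78%) and 537 lower (3.15%), and the median change of all genes was 0.018. At 218 genes (1.28%) all 32 libraries from 20 weeks lay on one side of all 32 from 10 weeks, with 93 genes higher (0.546%) and 125 lower (0.734%). Of the 12357 called genes, 1427 moved in the same direction in every one of the 32 fish, 668 upward and 759 downward. Without the 9 fish whose samples did not match, 11670 genes were called. Of the genes tested, 4739 carried a single human gene symbol, by which genes are named here; of these 74.2% were called, 38.2% higher and 36% lower, and these shares are the background for the gene lists below.

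The circadian clock held several of the largest changes of the comparison. Among its 19 genes tested, 7 were higher and 10 lower at 20 weeks, and 8 of the 19 did not overlap between the ages, against 1.28% of all genes. All 19 members are given here, of which 9 were named by rule and 10 were added after their values had been seen. Where 3 CPM values are given for an age, they are the lowest, median and highest of the 32 libraries, and the log2 change is that of 20 over 10 weeks with its standard error.

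Most repressors of the loop fell. PER3 (Nfu_g_1_021184), a period protein, had 4.82, 6.83 and 11.6 CPM at 20 weeks and 100.7, 169 and 217 CPM at 10 weeks (log2 change -4.46 ± 0.071, adjusted p = 3.71e-33). PER1 (Nfu_g_1_003740), another period protein, had 5.68, 13.5 and 27.8 CPM at 20 weeks and 39.9, 133.9 and 195 CPM at 10 weeks (log2 change -2.87 ± 0.17, adjusted p = 1.16e-16). The highest 20-week library lay below the lowest 10-week library for both genes, and both were lower in 32 of 32 fish. CIART (Nfu_g_1_016971), which binds and represses the CLOCK and ARNTL complex, had 1.998, 2.88 and 3.98 CPM at 20 weeks and 19.2, 45.6 and 63.3 CPM at 10 weeks (log2 change -3.80 ± 0.1, adjusted p = 7.05e-26), again without overlap. CRY1 (Nfu_g_1_011772) and CRY2 (Nfu_g_1_008517), the second named cry1a in fish, are cryptochromes that repress the complex together with the period proteins. CRY1 had 75.03, 121 and 175 CPM at 20 weeks and 119.6, 157 and 221 CPM at 10 weeks (log2 change -0.44 ± 0.05, adjusted p = 1.41e-09), lower in 30 fish. CRY2 had 20.8, 26.3 and 34.5 CPM at 20 weeks and 22.4, 29.5 and 37.9 CPM at 10 weeks (log2 change -0.14 ± 0.04, adjusted p = 0.00208), a call that was lost without the 9 unmatched fish (-0.072) and within fish FC105 to FC116 (0.0037). BHLHE40 (Nfu_g_1_020134), a repressor of the same promoters, had 78.5, 115.2 and 171 CPM at 20 weeks and 149.6, 195 and 271 CPM at 10 weeks (log2 change -0.80 ± 0.057), with a lower value at 20 weeks in 31 of 32 fish. The third period gene behaved otherwise: PER2 (Nfu_g_1_020053) was higher at 20 weeks in 31 of 32 fish, with 15.3, 27.7 and 60.8 CPM at 20 weeks and 2.53, 11.1 and 26.97 CPM at 10 weeks (log2 change 1.36 ± 0.16, adjusted p = 3.15e-09).

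The ARNTL genes of the positive arm rose. ARNTL2 (Nfu_g_1_008319), a partner of CLOCK, had 70.7, 90.5 and 116.3 CPM at 20 weeks and 17.8, 24.4 and 46.5 CPM at 10 weeks (log2 change 1.76 ± 0.083, adjusted p = 3.65e-19). ARNTL (Nfu_g_1_008007), the main partner of CLOCK, had 63.8, 73.97 and 82.9 CPM at 20 weeks and 15.98, 24.9 and 43.3 CPM at 10 weeks (log2 change 1.48 ± 0.063, adjusted p = 2.23e-20). Neither gene overlapped between the ages. Genes with NR1D2 as their best human match, nuclear receptors that repress ARNTL, split by copy, and reads of such close copies may have been shared between them. Nfu_g_1_013151 had 12.5, 22.3 and 30.4 CPM at 20 weeks and 111.5, 167 and 212 CPM at 10 weeks (log2 change -2.89 ± 0.084, adjusted p = 6.84e-25), and Nfu_g_1_010960 had 16.5, 24.3 and 71.5 CPM at 20 weeks and 40.7, 100.4 and 209 CPM at 10 weeks (-1.84). Both copies were lower in every fish. Nfu_g_1_020882 had 26.1, 39.1 and 62.5 CPM at 20 weeks and 0.505, 2.67 and 5.96 CPM at 10 weeks (log2 change 3.99 ± 0.17, adjusted p = 1.24e-20), and Nfu_g_1_010257 had 11.9, 22.6 and 33.6 CPM at 20 weeks and 1.36, 6.85 and 12.98 CPM at 10 weeks (2.06). The first of these rose in 32 fish and the other in 31. RORA (Nfu_g_1_008006), which activates ARNTL, had 0.356, 1.15 and 4.43 CPM at 20 weeks and 0.463, 1.12 and 3.58 CPM at 10 weeks and did not pass the test over the 32 fish (log2 change -0.0092 ± 0.18, adjusted p = 0.965). It was called higher within fish FC93 to FC108 (0.54, adjusted p = 0.0173) and lower within the other 16 fish (-0.72, adjusted p = 0.00809).

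Output genes of the clock also went both ways. TEF (Nfu_g_1_019542), a leucine zipper factor whose mRNA follows the clock, had 1.28, 3.89 and 19.5 CPM at 20 weeks and 4.75, 18.5 and 35.1 CPM at 10 weeks (log2 change -1.85 ± 0.24, adjusted p = 1.75e-08), with overlap between the ages and a lower value at 20 weeks in 30 fish. Genes whose best human match was HLF, a factor of the same family, also split by copy. Nfu_g_1_001056 had 1.95, 4.63 and 11.4 CPM at 20 weeks and 5.99, 16.5 and 25.97 CPM at 10 weeks (log2 change -1.60 ± 0.19), and Nfu_g_1_000888 had 9.34, 18.6 and 34.8 CPM at 20 weeks and 2.92, 7.998 and 12.5 CPM at 10 weeks (log2 change 1.33 ± 0.095). Nfu_g_1_016584 had 73.4, 87.5 and 113.3 CPM at 20 weeks and 35.1, 51.3 and 62.4 CPM at 10 weeks (log2 change 0.81 ± 0.039), higher in every fish without overlap. Nfu_g_1_023410 had 48.9, 61.3 and 72.8 CPM at 20 weeks and 47.9, 62.98 and 75.4 CPM at 10 weeks and did not pass the test (log2 change 0.01 ± 0.038, adjusted p = 0.816). Outside the list, USP2 (Nfu_g_1_003403), a deubiquitinating enzyme whose mRNA cycles in mammals, had 3.48, 6.62 and 14.7 CPM at 20 weeks and 17.8, 28.5 and 37.8 CPM at 10 weeks (log2 change -2.07 ± 0.075, adjusted p = 2.67e-22). Nfu_g_1_010177, a gene without a name in the tables used, had 0.541, 1.25 and 2.39 CPM at 20 weeks and 8.05, 20.5 and 31.9 CPM at 10 weeks (log2 change -3.84 ± 0.13, adjusted p = 8.20e-23). Both fell in all fish without overlap.

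**Figure D1:**
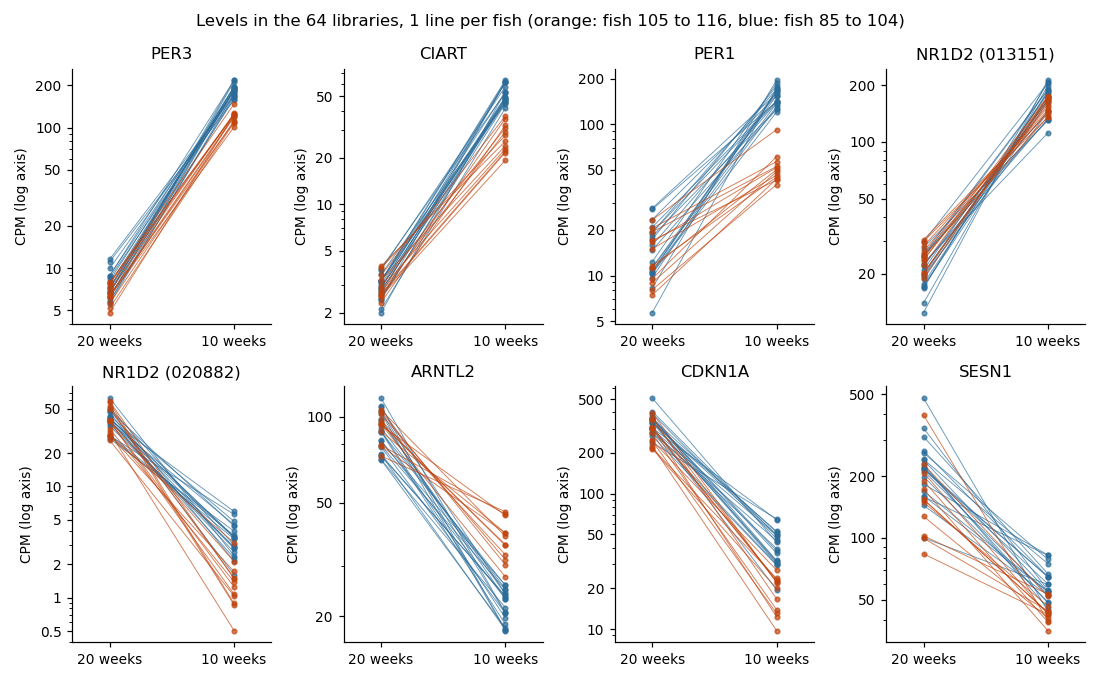
Levels of 6 clock genes, CDKN1A and SESN1 in the 64 libraries as CPM on a log axis, with 1 line per fish joining its 20-week value on the left to its 10-week value on the right. PER3, CIART, PER1 and NR1D2 (Nfu_g_1_013151) were lower at 20 weeks in all 32 fish and the other 4 genes higher, and at 10 weeks the orange lines of fish FC105 to FC116 lay apart from the blue lines of fish FC85 to FC104 for PER3, CIART, PER1 and ARNTL2.

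Of the 19 clock genes, CRY2, RORA and HLF Nfu_g_1_023410 had changes of opposite sign in the 2 runs of fish, none of them called in fish FC105 to FC116, and the other 16 kept their sign in both. At 10 weeks PER1 was at 39.9 to 91.9 CPM in fish FC105 to FC116 and 120.2 to 195 CPM in fish FC85 to FC104, and PER3 at 100.7 to 146 CPM and 157 to 217 CPM in the same 2 runs. ARNTL2 ran the other way, at 27.5 to 46.5 CPM in fish FC105 to FC116 and 17.8 to 25.7 CPM in fish FC85 to FC104. None of the 3 genes overlapped between the runs at 10 weeks, and all 3 did at 20 weeks. The log2 change of PER3 was -4.21 within fish FC105 to FC116 and -4.63 within fish FC85 to FC104, and that of CIART was -3.21 and -4.16. TEF changed by -0.67 and -2.57, and NR1D2 (Nfu_g_1_010257) by 3.66 and 1.24, the 2 widest gaps between the runs among the 9 clock genes named by rule. Of the added clock genes, HLF Nfu_g_1_001056 changed by -0.41 and -2.31. The labels give no hour or date for the clips.

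CDKN1A and SESN1, from the list of growth arrest genes, had some of the largest changes upward. The list of p53 targets and arrest genes held 14 tested members, of which 7 were higher (50%) and 3 lower (21.4%) at 20 weeks. These shares stand beside 38.2% and 36% of genes with a symbol, and the median log2 change was 0.21. The list median was 0.41 in fish FC105 to FC116 and 0.07 in fish FC85 to FC104. CDKN1A (Nfu_g_1_011849), the p21 inhibitor of cyclin-dependent kinases that halts division, had 215, 313 and 509 CPM at 20 weeks and 9.75, 30.8 and 65.02 CPM at 10 weeks (log2 change 3.39 ± 0.12, adjusted p = 2.72e-22). It was higher in every fish and the ages did not overlap, and its change was 3.95 within fish FC105 to FC116 and 3.05 within fish FC85 to FC104. Another gene with the same human match, Nfu_g_1_020871, had 7.56, 13.03 and 29.3 CPM at 20 weeks and 4.36, 6.18 and 10.8 CPM at 10 weeks (log2 change 1.11 ± 0.1), higher in 30 fish. SESN1 (Nfu_g_1_018970), a sestrin induced by p53 that lowers growth signalling, had 83.7, 204 and 479.7 CPM at 20 weeks and 35.4, 52.9 and 82.7 CPM at 10 weeks (log2 change 1.86 ± 0.11, adjusted p = 5.81e-17). Its libraries did not overlap between the ages either. CCNG1 (Nfu_g_1_004305), a cyclin induced by p53 and the member with the highest level, changed by only 0.26. TP53INP2 (Nfu_g_1_001684), of the same list, went the other way (-0.61, adjusted p = 5.63e-09), and the lowest change of a member was -1.20. CCNI2 (Nfu_g_1_005447), a cyclin of unsettled role, had 4.38, 10.5 and 18.6 CPM at 20 weeks and 0.408, 2.28 and 4.05 CPM at 10 weeks (log2 change 2.49 ± 0.14), higher in all fish.

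Several metabolic and signalling genes stood among the largest changes upward. CYP24A1 (Nfu_g_1_021215), which breaks down active vitamin D, had 4.15, 13.7 and 37.4 CPM at 20 weeks and 0.596, 1.86 and 4.86 CPM at 10 weeks (log2 change 2.82 ± 0.18, adjusted p = 9.97e-16). ARRDC2 (Nfu_g_1_002271), an arrestin-domain adaptor, had 6.01, 13.3 and 46.9 CPM at 20 weeks and 1.79, 3.90 and 11.6 CPM at 10 weeks (log2 change 1.83 ± 0.16). PDE7B (Nfu_g_1_018930), which degrades cyclic AMP, had 5.78, 12.1 and 20.3 CPM at 20 weeks and 1.19, 3.32 and 5.01 CPM at 10 weeks (log2 change 1.82 ± 0.066, adjusted p = 2.72e-22). All 3 rose in 32 of 32 fish; the libraries of PDE7B did not overlap between the ages, and its change was 1.84 within fish FC105 to FC116 and 1.79 within fish FC85 to FC104. IRS2 (Nfu_g_1_008662), the adaptor that passes insulin signals inward, had 5.31, 16.9 and 81.5 CPM at 20 weeks and 0.446, 3.46 and 20.4 CPM at 10 weeks (log2 change 2.24 ± 0.3), with values that overlapped between the ages and were higher in 29 fish. Another gene with the same human match, Nfu_g_1_005777, rose by only 0.67. Its change was 1.20 in fish FC105 to FC116 and 0.35, without a call, in fish FC85 to FC104.

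Downward, CYP3A43 (Nfu_g_1_007097), a cytochrome P450 of the family that oxidises steroids and drugs, had 13.1, 26.5 and 138 CPM at 20 weeks and 110.1, 184 and 395 CPM at 10 weeks (log2 change -2.70 ± 0.14, adjusted p = 3.32e-18). ARG2 (Nfu_g_1_021857), the mitochondrial arginase, had 1.14, 2.20 and 7.66 CPM at 20 weeks and 4.28, 12.9 and 21.3 CPM at 10 weeks (log2 change -2.33 ± 0.13). IGF2BP3 (Nfu_g_1_013299), which binds growth factor mRNAs, had 3.93, 6.23 and 12.3 CPM at 20 weeks and 15.1, 22.6 and 57.8 CPM at 10 weeks (log2 change -2.06 ± 0.12). SLC30A1 (Nfu_g_1_018839), a zinc exporter, had 2.66, 4.69 and 8.34 CPM at 20 weeks and 9.42, 18.8 and 23.8 CPM at 10 weeks (log2 change -1.92 ± 0.092), and MFSD14B (Nfu_g_1_010700), a membrane transporter, had 3.29, 5.26 and 8.23 CPM at 20 weeks and 11.3, 20.6 and 28.7 CPM at 10 weeks (log2 change -1.91 ± 0.063). All 5 genes fell in every fish, and of these only IGF2BP3, SLC30A1 and MFSD14B had no overlap between the ages. PPRC1 (Nfu_g_1_014525), a coactivator of mitochondrial gene expression, had 1.77, 9.64 and 49.3 CPM at 20 weeks and 15.3, 39.7 and 118 CPM at 10 weeks (log2 change -2.33 ± 0.17), lower in 31 fish. OCA2 (Nfu_g_1_014733), a melanosome transporter of pigment cells, had 6.22, 15.5 and 27.7 CPM at 20 weeks and 17.99, 44.3 and 93.6 CPM at 10 weeks (log2 change -1.66 ± 0.11, adjusted p = 3.47e-15), lower in all fish.

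The levels of HERC2 and EP400 followed animal number at both ages. HERC2 (Nfu_g_1_014732), an ubiquitin ligase, had 3.62, 25.4 and 68.6 CPM at 20 weeks and 0.353, 2.19 and 13.5 CPM at 10 weeks, with a log2 change of 2.75 ± 0.39 (adjusted p = 1.40e-07). Its 20-week libraries were at 41.7 to 68.6 CPM in fish FC93 to FC108 and 3.62 to 9.03 CPM in the other 16 fish, without overlap. At 10 weeks 14 fish, the odd numbers from FC85 to FC99 and the even numbers from FC106 to FC116, were at 5.04 to 13.5 CPM and the other 18 fish at 0.353 to 3.34 CPM, and 45 genes (0.264%) were apart in that way. These 14 fish were picked after the levels had been seen, so their separation is given as a description. EP400 (Nfu_g_1_013008), the ATPase of a chromatin remodelling complex, showed the same split, at 19.9 to 29.8 CPM in fish FC93 to FC108 and 3.95 to 9.22 CPM in the others at 20 weeks. Within fish FC93 to FC108 HERC2 rose by 4.09 and EP400 by 2.51, whereas in the other 16 fish HERC2 rose by 1.09 (adjusted p = 0.0188) and EP400, at 0.89, did not pass the test (adjusted p = 0.087). IRS2 (Nfu_g_1_008662) rose by 2.94 in fish FC93 to FC108 and 1.46 in the other 16 fish. The 211 genes that were apart in fish FC93 to FC108 at 20 weeks had, as their choice fixes, a larger median change in those fish, 0.87, than in the other 16, 0.073, which is given as a description.

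**Figure D2:**
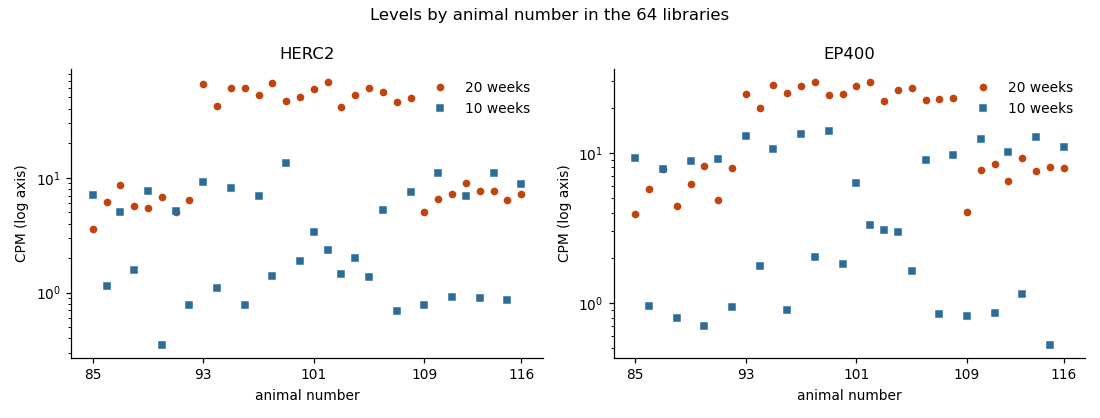
HERC2 and EP400 by animal number, as CPM on a log axis, with circles for the 20-week and squares for the 10-week library of each of the 32 fish. The 20-week values of fish FC93 to FC108 lie above those of the other 16 fish, and the 10-week values alternate between neighbouring numbers at both ends of the range.

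The proteasome rose as a group. Of 28 subunit genes tested, 25 were higher and 1 lower at 20 weeks, with a median log2 change of 0.33 beside 0.018 for all genes. The median over its members was above 0 in each of the 32 fish, between 0.013 and 0.74, although no member was without overlap between the ages. PSMC4 (Nfu_g_1_016730), an ATPase of the regulatory particle, had 41.3, 70.8 and 98.9 CPM at 20 weeks and 31.8, 42.4 and 65.9 CPM at 10 weeks (log2 change 0.60 ± 0.051, adjusted p = 1.59e-12). PSMA2 (Nfu_g_1_016822), a subunit of the core barrel, had 80.04, 115.7 and 167 CPM at 20 weeks and 64, 80.9 and 104.1 CPM at 10 weeks (log2 change 0.49 ± 0.036, adjusted p = 3.29e-14). Both were higher in all fish, as was PSMD1 (Nfu_g_1_002670), a scaffold of the regulatory particle, which rose by 0.49. PSMD2 (Nfu_g_1_016553), the other large scaffold, had 101.2, 176 and 229.7 CPM at 20 weeks and 101.1, 124.4 and 177 CPM at 10 weeks (log2 change 0.34 ± 0.042), higher in 30 fish. The count was 25 higher without the 9 fish of unmatched samples, 26 in fish FC85 to FC104, 21 in fish FC105 to FC116 (3 lower) and 20 in fish FC93 to FC108 (1 lower). At 10 weeks PSMC4 was already at 53.9 to 65.9 CPM in fish FC105 to FC116 and at 31.8 to 47.1 CPM in fish FC85 to FC104.

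Ribosomal proteins and the factors that assemble ribosomes moved in opposite directions. Of 57 genes for proteins of the cytosolic ribosome, 52 were higher and 1 lower, with a median change of 0.22. RPS25 (Nfu_g_1_000168) had 861, 1048 and 1233 CPM at 20 weeks and 579, 799 and 1053 CPM at 10 weeks (log2 change 0.39 ± 0.042, adjusted p = 3.12e-10). It belongs to the small subunit and rose in 31 fish, with overlap between the ages. RPS2 (Nfu_g_1_019342), also of the small subunit, had the highest level of the list and changed by 0.18, a call that was lost in fish FC85 to FC104 (0.086) and in fish FC93 to FC108 (0.13). The number higher was 35 in fish FC85 to FC104 and 53 in fish FC105 to FC116, with medians of 0.14 and 0.33.

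Of 29 genes of ribosome biogenesis, 26 were lower and 2 higher, with a median of -0.46, and the median over the members was below 0 in 31 of 32 fish. WDR74 (Nfu_g_1_016323), needed to assemble the large subunit, had 1.01, 2.28 and 5.52 CPM at 20 weeks and 3.51, 6.63 and 17.98 CPM at 10 weeks (log2 change -1.83 ± 0.11, adjusted p = 2.06e-16). UTP14A (Nfu_g_1_005678), listed as UTP14C in the fish annotation and a part of the complex that processes small-subunit RNA, had 8.41, 11.6 and 18.2 CPM at 20 weeks and 13.5, 21.8 and 48.4 CPM at 10 weeks (log2 change -1.14 ± 0.089). DKC1 (Nfu_g_1_021723), the enzyme that makes pseudouridine in ribosomal RNA, had 38.8, 77.8 and 139 CPM at 20 weeks and 96.8, 128 and 282 CPM at 10 weeks (log2 change -1.07 ± 0.081, adjusted p = 7.42e-14). All 3 were lower in every fish, with overlap between the ages. Of the 2 genes called higher, DDX21 (Nfu_g_1_003349) is an RNA helicase of the nucleolus and the member with the highest level; it rose by 0.36, in 28 fish. DKC1 at 10 weeks was at 180.1 to 282 CPM in fish FC105 to FC116 and 96.8 to 167 CPM in fish FC85 to FC104, and the list had a median change of -0.69 and -0.33 in these runs.

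Other steps of protein synthesis were mixed. Translation factors were 14 higher and 11 lower of 37 (median 0.029). EIF4G2 (Nfu_g_1_003937), an initiation factor for messages with an unusual start, fell to 146, 221 and 428 CPM at 20 weeks, against 313, 387 and 457 CPM at 10 weeks (log2 change -0.74 ± 0.056), and EIF1 (Nfu_g_1_017342), listed as EIF1B in the fish annotation, which guards the choice of start codon, had 109.3, 152 and 182 CPM at 20 weeks and 198, 226 and 292 CPM at 10 weeks (log2 change -0.63 ± 0.045, adjusted p = 1.90e-14). EIF1 did not overlap between the ages. Aminoacyl-tRNA synthetases and enzymes of amino acid synthesis were 11 higher and 6 lower of 20 (median 0.22), with 6 and 6 in fish FC105 to FC116 and 12 and 5 in fish FC85 to FC104. The synthetases NARS (Nfu_g_1_018229) and IARS (Nfu_g_1_021399), which charge tRNA with asparagine and isoleucine, rose by 0.89 and 0.63. In contrast PHGDH (Nfu_g_1_017748), the first enzyme of serine synthesis, had 15.3, 44.5 and 107.4 CPM at 20 weeks and 38.1, 81.2 and 176 CPM at 10 weeks (log2 change -0.95 ± 0.094), and MTHFD2 (Nfu_g_1_008825), a mitochondrial enzyme of folate metabolism, had 8.57, 30.96 and 96.8 CPM at 20 weeks and 36.4, 64.98 and 163 CPM at 10 weeks (log2 change -1.16 ± 0.1). PHGDH was lower in 32 fish and MTHFD2 in 31. Mitochondrial ribosomal proteins were 2 higher and 11 lower of 31 (median -0.055), with 1 higher and 16 lower in fish FC105 to FC116 and 5 higher and 6 lower in fish FC85 to FC104.

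Chaperones and folding enzymes of the endoplasmic reticulum also split, with 14 higher and 9 lower of 26 (median 0.13). HSP90B1 (Nfu_g_1_008461), the HSP90 of this compartment, had 161, 343 and 582 CPM at 20 weeks and 105.7, 143 and 436 CPM at 10 weeks (log2 change 0.90 ± 0.1, adjusted p = 1.08e-09), and PDIA6 (Nfu_g_1_018736), a disulphide isomerase, had 74.8, 131 and 199.6 CPM at 20 weeks and 47.97, 63.05 and 131 CPM at 10 weeks (log2 change 0.80 ± 0.063). HSP90B1 was higher in 30 fish and PDIA6 in 32. Within fish FC105 to FC116 HSP90B1 changed by 0.32 and the list by a median of -0.046, and within fish FC85 to FC104 by 1.24 and 0.18. ATF6 (Nfu_g_1_010169), a membrane sensor of unfolded proteins, had 15.5, 19.99 and 23.9 CPM at 20 weeks and 35.8, 47.5 and 60.99 CPM at 10 weeks (log2 change -1.24 ± 0.039, adjusted p = 7.11e-24), lower in all fish without overlap. SERPINH1 (Nfu_g_1_000192), a chaperone dedicated to collagen, had 58.1, 219 and 377 CPM at 20 weeks and 321, 475 and 1206 CPM at 10 weeks (log2 change -1.48 ± 0.11, adjusted p = 9.40e-14), lower in all fish. Its 10-week values were 615 to 1206 CPM in fish FC105 to FC116 and 321 to 567 CPM in fish FC85 to FC104.

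Genes of the extracellular matrix fell together. Of 35 collagen and matrix genes, 27 were lower and 3 higher (median -0.51), and the median over the members was below 0 in all 32 fish, between -0.92 and -0.036. TNC (Nfu_g_1_014607), the matrix protein tenascin C made in growing and healing tissue, had 1.42, 3.38 and 6.58 CPM at 20 weeks and 7.27, 9.41 and 17.9 CPM at 10 weeks (log2 change -1.56 ± 0.085, adjusted p = 1.58e-17), without overlap. COL5A2 (Nfu_g_1_022528), a fibril collagen, had 164, 495 and 893 CPM at 20 weeks and 635, 1064 and 1462 CPM at 10 weeks (log2 change -1.14 ± 0.076, adjusted p = 2.75e-15). COL6A1 (Nfu_g_1_020233), a chain of the beaded collagen around cells, had 335, 769 and 1279.8 CPM at 20 weeks and 1136, 1621 and 2266 CPM at 10 weeks (log2 change -1.07 ± 0.065, adjusted p = 2.27e-16). Both were lower in every fish, with some overlap between the ages. SPARC (Nfu_g_1_004335), a secreted protein that binds collagen, had 789, 1659 and 2842 CPM at 20 weeks and 2454, 2932 and 4085 CPM at 10 weeks (log2 change -0.85 ± 0.06), lower in 31 fish. The call counts were 26 lower in fish FC85 to FC104 and 26 in fish FC105 to FC116.

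Markers of different cell types went different ways. Of 22 connective tissue markers, 15 were lower and 3 higher (median -0.44), and their summed level was 5729.8 to 12315 CPM at 20 weeks and 11602 to 18208 CPM at 10 weeks. This list shares genes with the matrix list, so the 2 counts are not independent. In such bulk samples fewer cells of a type and less RNA per cell cannot be told apart. Nerve and myelin markers were 7 lower and 0 higher of 9 (median -0.52), with MBP (Nfu_g_1_012286), a myelin protein, at 5.49, 8.65 and 14.4 CPM at 20 weeks and 7.69, 12.9 and 17.3 CPM at 10 weeks (log2 change -0.52 ± 0.07). Leukocyte markers were 4 higher and 0 lower of 8 (median 0.29), among them TNFRSF9 (Nfu_g_1_002016), a receptor of activated lymphocytes (0.87), and ITGAL (Nfu_g_1_009792), an integrin of white blood cells (0.50), while the summed level was 263 to 785 CPM at 20 weeks and 306 to 600.0 CPM at 10 weeks. CD68 (Nfu_g_1_022531), of the same list, was not called (-0.24, adjusted p = 0.0534), but was lower within fish FC85 to FC104 (-0.45, adjusted p = 0.0055). The list was 4 higher and 2 lower in that run, and 5 higher and 0 lower in fish FC105 to FC116. Epidermis markers were 3 higher and 9 lower of 16 (median -0.15), with ANXA1 (Nfu_g_1_009315), a lipid-binding protein of keratinocytes, lower in all fish (-0.59) and TP63 (Nfu_g_1_019970), the transcription factor of basal keratinocytes, higher in 31 (0.54). Endothelial markers were 2 higher and 5 lower of 8, erythrocyte markers 1 higher and 2 lower of 4, and pigment cell markers 2 higher and 1 lower of 3. Of 7 muscle markers only 2 genes of a glycolytic enzyme passed the expression filter, both PGAM2 and both higher. The part of cell composition in the matrix counts was not tested.

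**Figure D3:**
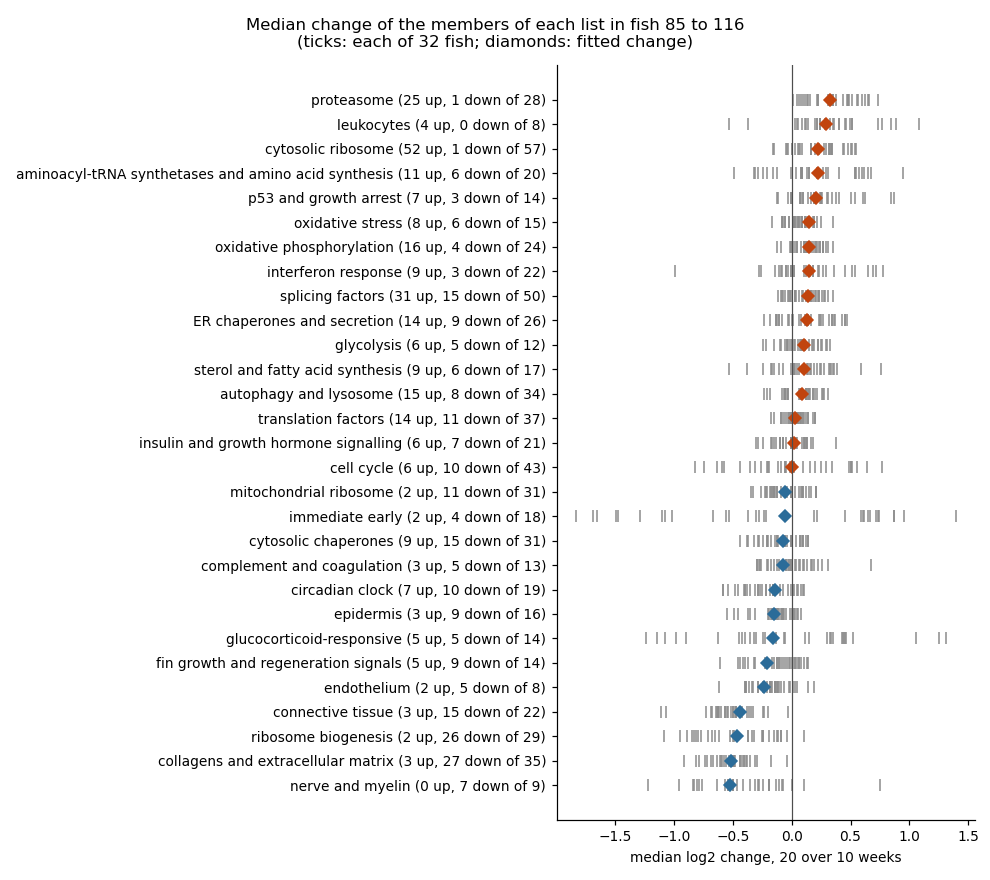
Median log2 change (20 over 10 weeks) over the members of each gene list with at least 8 tested genes, with the number of genes called higher (up) and lower (down) beside its name. Grey ticks stand for the 32 fish and diamonds for the fitted change; the proteasome lies above 0 in all 32 fish and the collagens below 0 in all 32, while the immediate early genes range from -1.83 to 1.40.

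Of 43 cell cycle genes, 6 were higher and 10 lower (median 0.0031), beside 38.2% higher and 36% lower among all genes with a symbol. In fish FC105 to FC116, 4 were higher and 15 lower, and in fish FC85 to FC104, 4 were higher and 6 lower. The spread between fish was wide, with fish medians between -0.82 and 0.77. Nfu_g_1_019673, a helicase subunit that opens DNA for replication (MCM2 as the best human match, mcm5 as the fish name), had 15.1, 42.8 and 91.6 CPM at 20 weeks and 31.6, 56.7 and 108.3 CPM at 10 weeks (log2 change -0.63 ± 0.11, adjusted p = 4.04e-06). LMNB1 (Nfu_g_1_014186), the lamin of the nuclear envelope that falls in senescent mammalian cells, had 10.9, 26.6 and 50.5 CPM at 20 weeks and 19.2, 32.3 and 99.3 CPM at 10 weeks (log2 change -0.72 ± 0.11). Both were lower in 26 of 32 fish, with overlap between the ages, and LMNB1 changed by -1.33 in fish FC105 to FC116 and -0.36 in fish FC85 to FC104. HMGB2 (Nfu_g_1_015911), a chromatin protein of dividing cells, was called higher (0.17, adjusted p = 0.00131), but not in fish FC105 to FC116 (0.058) or fish FC93 to FC108 (0.094). Signals of fin growth and regeneration were 5 higher and 9 lower of 14, with GJA1 (Nfu_g_1_009903), the gap junction protein that sets ray segment length in zebrafish, at 6.55, 13.2 and 18.9 CPM at 20 weeks and 15.6, 22.9 and 33.01 CPM at 10 weeks (log2 change -0.91 ± 0.096), lower in 31 fish.

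Immediate early genes, which cells switch on within minutes of a stimulus, were called in opposite directions in the 2 runs of fish. Over all 32 fish, 2 of 18 immediate early genes were higher and 4 lower (median -0.061). In fish FC105 to FC116, 15 of the 18 were higher and 0 lower (median 0.80), and in fish FC85 to FC104, 0 were higher and 11 lower (median -0.79). The median over the list was above 0 in 12 of 12 fish of the first run and in 3 of 20 of the second. NR4A3 (Nfu_g_1_001278), an orphan nuclear receptor, had 4.48, 11.2 and 50.5 CPM at 20 weeks and 9.91, 38.2 and 101.3 CPM at 10 weeks (log2 change -1.47 ± 0.26); its change was -0.0054 in fish FC105 to FC116 and -2.31 in fish FC85 to FC104. JUNB (Nfu_g_1_019346), a subunit of the AP-1 factor, had 46.7, 72.4 and 119.9 CPM at 20 weeks and 25.4, 51.9 and 164 CPM at 10 weeks (log2 change 0.53 ± 0.13), and changed by 1.11 and 0.16 in these runs. Glucocorticoid-responsive genes were called in both directions in both runs, with 8 higher and 2 lower of 14 in fish FC105 to FC116 and 3 higher and 7 lower in fish FC85 to FC104. The lowest and highest changes of this list were those of PER1 and IRS2, which also count in the clock and insulin lists. SGK1 and DDIT4 each moved in 1 direction in at least 31 fish: SGK1 (Nfu_g_1_018788), a kinase induced by cortisol, had 18.1, 24.6 and 35.5 CPM at 20 weeks and 51.9, 67.5 and 101.7 CPM at 10 weeks (log2 change -1.46 ± 0.06, adjusted p = 6.91e-21), lower in every fish without overlap, and DDIT4 (Nfu_g_1_023065), an inhibitor of growth signalling, had 10.2, 18.99 and 90.1 CPM at 20 weeks and 5.68, 9.10 and 32.2 CPM at 10 weeks (log2 change 1.06 ± 0.15), higher in 31 fish.

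**Figure D4:**
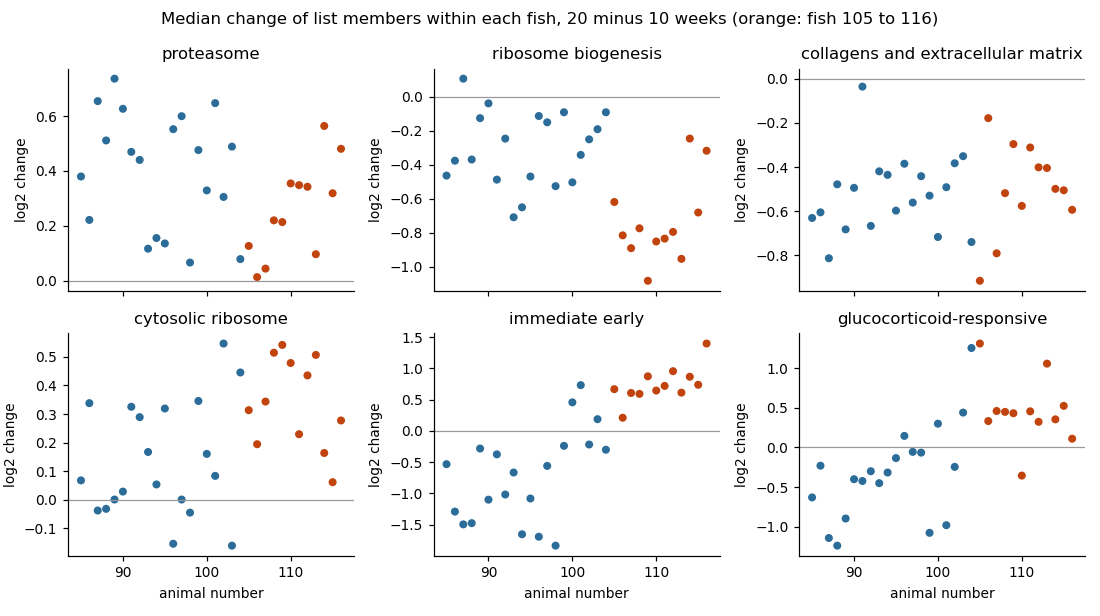
Median log2 change (20 minus 10 weeks) over the members of 6 gene lists within each of the 32 fish, by animal number, with fish FC105 to FC116 in orange. The immediate early genes are above 0 in all 12 orange fish and in 3 of the 20 others, whereas the collagens are below 0 in all 32 fish and the proteasome above 0 in all 32.

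Lists of lipid synthesis, mitochondrial and immune genes had small median changes. Sterol and fatty acid genes were 9 higher and 6 lower of 17, but FASN (Nfu_g_1_017949), the fatty acid synthase, had 21.7, 64.6 and 146 CPM at 20 weeks and 11.7, 21.5 and 44.97 CPM at 10 weeks (log2 change 1.49 ± 0.11, adjusted p = 8.51e-14), and SREBF1 (Nfu_g_1_019636), the transcription factor that switches such genes on, had 108.01, 149.9 and 213 CPM at 20 weeks and 44.6, 72.1 and 138 CPM at 10 weeks (log2 change 1.04 ± 0.058, adjusted p = 3.04e-17). Both rose in 32 of 32 fish. Nfu_g_1_008278, a fatty acid desaturase (FADS1 as the best human match, fads2 as the fish name), rose by 0.86 in 31 fish. ELOVL7 (Nfu_g_1_008867), of the same list, went the other way (-1.14, adjusted p = 3.54e-07). Its change was -1.58 within fish FC85 to FC104 and -0.42, without a call, within fish FC105 to FC116. Oxidative phosphorylation was 16 higher and 4 lower of 24 (median 0.14), with COX5A (Nfu_g_1_003504), a subunit of cytochrome c oxidase, at 31.4, 51.3 and 71.3 CPM at 20 weeks and 26.3, 31.6 and 50.7 CPM at 10 weeks (log2 change 0.53 ± 0.047), higher in all fish. ATP5J (Nfu_g_1_005965), of the same list, fell (-0.83, adjusted p = 1.45e-11), and ATP5B (Nfu_g_1_008681) was not called (0.044, adjusted p = 0.183). Interferon-response genes were 9 higher (40.9%) and 3 lower (13.6%) of 22, beside 38.2% and 36% of genes with a symbol. IRF1 (Nfu_g_1_022232), a transcription factor of that response (1.04), and UBA7 (Nfu_g_1_020834), the activating enzyme of ISG15 (0.65), were higher in 31 and 29 fish. IFI27L1 (Nfu_g_1_007454), of the same list, was lower (-0.51, adjusted p = 0.0133), but was not called in fish FC85 to FC104 (-0.38). Splicing factors were 31 higher and 15 lower of 50, with 21 and 16 in fish FC105 to FC116 and 31 and 9 in fish FC85 to FC104. Among these HNRNPD (Nfu_g_1_006635), which also controls mRNA decay, had 28.4, 32.7 and 43.999 CPM at 20 weeks and 17.2, 19.7 and 22.8 CPM at 10 weeks (log2 change 0.74 ± 0.026, adjusted p = 1.74e-22), higher in every fish without overlap, and Nfu_g_1_015095 (HNRNPR as the best human match, syncrip as the fish name), an RNA-binding protein, had 35.9, 86.02 and 179 CPM at 20 weeks and 81.5, 138 and 322 CPM at 10 weeks (log2 change -1.04 ± 0.097), lower in 31 fish. Insulin and growth hormone signalling was 6 higher and 7 lower of 21, glycolysis 6 and 5 of 12, autophagy and lysosome 15 and 8 of 34, cytosolic chaperones 9 and 15 of 31, oxidative stress 8 and 6 of 15, and complement and coagulation 3 and 5 of 13. Insulin signalling was 10 higher and 7 lower in fish FC105 to FC116 and 4 and 10 in fish FC85 to FC104, and autophagy 19 and 4 in fish FC105 to FC116 and 10 and 12 in fish FC85 to FC104.

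The size of the change varied between fish. The standard deviation of the change over the 32 fish had a median of 0.34 on the log2 scale over all genes. The first principal component of the changes held 15.3% of their variance and the next 11.99%, and its scores were -6.90 to 46.9 in fish FC105 to FC116 and -49.3 to 32.3 in fish FC85 to FC104, with overlap. The spread of levels between fish was about the same at both ages, with a median standard deviation of log2 CPM of 0.285 at 20 weeks and 0.2997 at 10 weeks, and it was larger at 20 weeks for 47.9% of genes. Of 16780 genes tested in both fish FC105 to FC116 and fish FC85 to FC104, 11030 were called in the first run and 10721 in the second. Called in both runs were 8073 genes, 7615 of them in the same direction and 458 in opposite directions.

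Whether the change of fish FC85 to FC116 differed from that of the other fish was tested on the differences within each fish. The change differed from that of fish FC51 to FC84 at 11501 of 17116 genes (67.2%), above it at 5910 (34.5%) and below it at 5591 (32.7%), and from that of fish FC1 to FC50 at 8946 (52.3%), above it at 4623 (27%) and below it at 4323 (25.3%). This was limma on log2 CPM with Benjamini-Hochberg adjustment over genes filtered on all 228 libraries, and the ranges share no samples; animal number, lifespan and any date that goes with the numbers cannot be told apart.

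Clock genes were among those with the widest gaps. PER3 changed by -4.45 in fish FC85 to FC116, 2.21 in fish FC51 to FC84 and -0.04 in fish FC1 to FC50, so that the change in fish FC85 to FC116 minus that of the other ranges was -6.67 ± 0.47 (SE, adjusted p = 8.84e-25) and -4.41 ± 0.43 (adjusted p = 2.64e-15). PER1 changed by -2.88, 3.06 and -0.10 in the same 3 ranges, and CIART by -3.78, 1.35 and -0.41. Of the NR1D2 copies, Nfu_g_1_020882 changed by 4.06, -0.43 and 0.13, and Nfu_g_1_013151 by -2.89, 1.20 and 0.23. CDKN1A (Nfu_g_1_011849) rose by 3.40 in fish FC85 to FC116, beside -0.22 in fish FC51 to FC84 and 0.14 in fish FC1 to FC50, a difference of 3.61 ± 0.25 and 3.26 ± 0.23 (adjusted p = 6.66e-25 and 1.55e-22). CYP3A43 changed by -2.69 in fish FC85 to FC116, 2.11 in fish FC51 to FC84 and 0.061 in fish FC1 to FC50. HERC2 changed by 2.78, -0.24 and -0.74, with the split by animal number described above.

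The median change of the proteasome genes was 0.33 in fish FC85 to FC116, -0.72 in fish FC51 to FC84 and 0.053 in fish FC1 to FC50, and the change of fish FC85 to FC116 was above that of fish FC51 to FC84 at 28 of 28 genes and above that of fish FC1 to FC50 at 19, with 1 below. PSMC4 changed by 0.60, -1.07 and 0.055, and the synthetase NARS by 0.89, -1.70 and 0.081. HSP90B1 followed the same order, with 0.91, -1.49 and 0.05. Cell cycle genes had median changes of 0.0062, -1.38 and -0.60, and fish FC85 to FC116 were above fish FC51 to FC84 at 39 of 43 genes and above fish FC1 to FC50 at 25; MCM2 (Nfu_g_1_019673) changed by -0.63, -2.24 and -0.39, and the difference from fish FC1 to FC50 did not pass the test (adjusted p = 0.45). SREBF1 rose in fish FC85 to FC116 by 1.04, beside -0.19 and 0.53 in the other ranges.

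The matrix list had a median change below 0 in all 3 ranges, at -0.47 in fish FC85 to FC116, -0.58 in fish FC51 to FC84 and -0.42 in fish FC1 to FC50. COL6A1 changed by -1.07, -1.33 and -0.74, and the differences of 0.26 ± 0.12 and -0.33 ± 0.11 were smaller than the change itself (adjusted p = 0.0453 and 0.00798). The change in the matrix list was above that of fish FC51 to FC84 at 12 genes and below it at 9 of 35, and below that of fish FC1 to FC50 at 9, with 0 above.

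**Figure D5:**
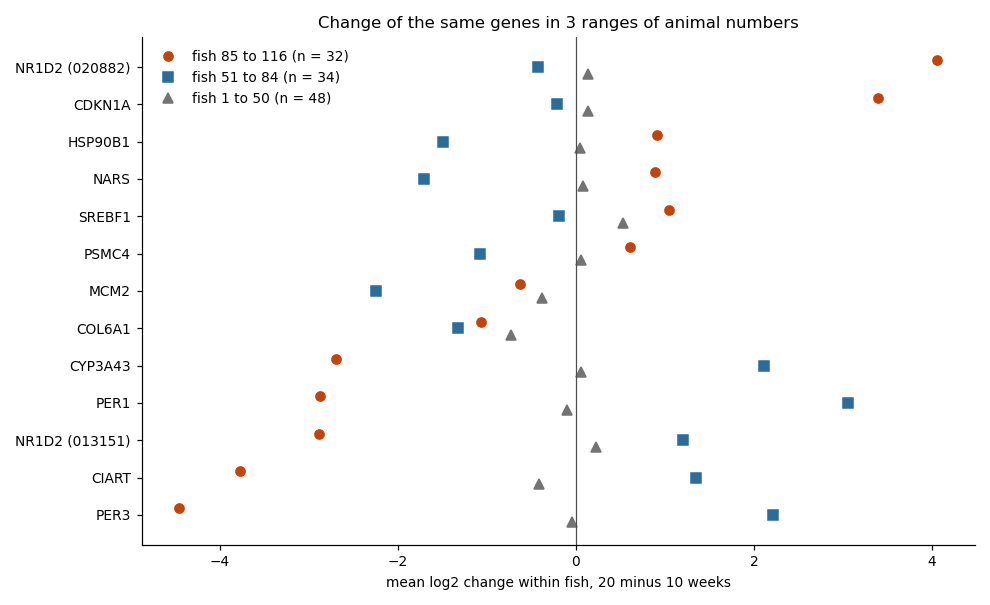
Mean log2 change within fish (20 minus 10 weeks) of 13 genes in fish FC85 to FC116 (circles, n = 32), fish FC51 to FC84 (squares, n = 34) and fish FC1 to FC50 (triangles, n = 48). PER3 is at -4.45, 2.21 and -0.04 in these ranges, whereas COL6A1 is below 0 in all 3.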

How the data were processed

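RNA from 64 fin clips (32 fish at 20 and 10 weeks) was analysed from the gene counts as the authors deposited them, 26739 genes in whole numbers, made per the submitters' processing notes with bcl2fastq 1.8.4, TopHat2 2.1.0 and featureCounts 1.5.0. Which genome build these counts rest on is not given in the sources used here. Per the labels, the kit kept no strand, so overlapping and antisense genes, and close copies, are uncertain. Genes were named by the best human match in identity columns of the study's tables (5363 IDs with 1 symbol). Members and lists were chosen with earlier results of these data known.

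Counts were filtered by filterByExpr, scaled by TMM and tested with edgeR 4.0.16 in R 4.3.3, 20 over 10 weeks with the fish as block, two-sided, at an adjusted p of 0.05. The animal number in the labels pairs the samples: deviations from the age mean correlated at a mean r of 0.358 within a fish (0.451 in the 23 matched and 0.121 in the 9 unmatched fish) and -0.0117 between fish. P-values rest on how the change within a fish varied over these fish, not on differences in level between fish. The test takes the changes as independent between fish. Their first principal component had a median score of 28.4 in fish FC105 to FC116 and -14.9 in fish FC85 to FC104. Differences between ranges used limma 3.58.1 on within-fish log2 CPM (prior count 1). The tests were tested on simulated data in which fish were independent, so changes shared by runs of fish were not covered. Named genes were, in each direction, the 12 largest called changes with a symbol, a mean of at least 5 CPM and 1 direction in at least 75% of fish, and the 2 largest with or without a symbol; up to 4 members of each list by size of change and its most abundant one; and the 3 genes in each direction that differed most from both other ranges. A gene of the ribosome list that this rule names is not reported here. No 2 libraries of the same age agreed within sampling noise, and libraries of different ages were not compared in this way. Alternatives were the fit without unmatched fish, without the block, with DESeq2 1.42.0, median-of-ratios factors, limma, no filter, fish FC85 to FC100, fish FC101 to FC116, and without the fish that died by day 168 or have no known age at death. The runs FC93 to FC108, FC85 to FC104, FC105 to FC116 and the remaining 16 fish were added after seeing the data. So was the split of the 10-week libraries into 14 and 18 fish.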

Additional observations from a re-analysis of the deposited data

Results flagged for a closer look

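The change from 10 to 20 weeks in fish FC85 to FC116 differed from that of the other ranges by limma with Benjamini-Hochberg adjustment, at 11501 genes against fish FC51 to FC84 and 8946 genes against fish FC1 to FC50. Differences are given as the log2 change of fish FC85 to FC116 minus that of the other range, first against fish FC51 to FC84 and then against fish FC1 to FC50. Among clock genes the difference was -6.67 and -4.41 for PER3, -5.93 and -2.78 for PER1, and -5.13 and -3.36 for CIART. It was -4.09 and -3.12 for NR1D2 (Nfu_g_1_013151), and 4.49 and 3.93 for NR1D2 (Nfu_g_1_020882). The labels give no hour of sampling.

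Outside the clock it was 3.61 and 3.26 for CDKN1A, -4.80 and -2.75 for CYP3A43, and 3.02 and 3.52 for HERC2, whose levels also follow animal number. It was 1.68 and 0.55 for PSMC4, 2.60 and 0.81 for NARS, 2.40 and 0.86 for HSP90B1, 0.26 and -0.33 for COL6A1, and 1.23 and 0.52 for SREBF1. For MCM2 (Nfu_g_1_019673) the difference from fish FC51 to FC84 was 1.61. Range of animal numbers, lifespan and any date that goes with them cannot be told apart.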

How the results depend on the processing

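The number of genes called stayed within 1.5 times of 12357 in every alternative run: 11384 without the fish as block (the pairing), 11670 without unmatched fish, 12432 with DESeq2, 13553 without a filter and 10213 in fish FC85 to FC100. In no fish did only 1 of the samples match, so leaving out fish with either or with both samples unmatched is the same fit. Against fish FC1 to FC50 and FC51 to FC84 the alternatives gave 7974 to 8988 and 10909 to 11525 genes. Of the genes named with values, signs turned for JUNB (-0.064 in fish FC85 to FC100), RORA (0.024 without the block, 0.068 in fish FC101 to FC116, 0.54 in fish FC93 to FC108, 0.094 in fish FC85 to FC104), CRY2 (0.0037 in fish FC105 to FC116), HLF Nfu_g_1_023410 (-0.048 in fish FC101 to FC116, -0.075 in fish FC93 to FC108, -0.00059 in fish FC85 to FC104) and KRT76 (0.00075 without unmatched fish, 0.028 in fish FC101 to FC116, 0.041 in fish FC85 to FC92 with FC109 to FC116, 0.086 in fish FC105 to FC116); RORA, HLF Nfu_g_1_023410 and KRT76 were not called in the 32 fish. Signs also turned for ATP5B (-0.042 in fish FC93 to FC108, -0.036 in fish FC105 to FC116) and CD68 (0.076 in fish FC105 to FC116). Neither of these was called in the 32 fish. Calls of EP400, RPS2, HMGB2, NR4A3, JUNB, CRY2, ELOVL7, IFI27L1 and IRS2 Nfu_g_1_005777 were lost in some subsets of fish. The cause was not tested. Of 64 list counts, 0 to 22 moved by over 1.5 times in a setting, most in subsets of fish. Each library held at least 1.59e+07 counts, and genes with low counts carry the widest error.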
